A study of Mus musculus with 6 samples.

Results

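The genes described here were lower after 12 h of nuclear Snail than before it and had come part of the way back by 24 h. They were measured on Illumina bead arrays in E14 mouse embryonic stem cells, a line of cultured cells from the early embryo, that expressed Snail-ER. In this fusion the zinc finger repressor Snail (Snai1) is joined to an estrogen receptor domain, and per the labels 4-hydroxytamoxifen (4-OHT) was given to bring it into the nucleus. Cells were taken at 0, 2, 4, 8, 12 and 24 h after 4-OHT was added, each time was read on a single array (6 in all), and all cells were kept in serum with LIF, the cytokine that holds mouse embryonic stem cells undifferentiated. The 0 h cells carried the fusion too, and no cells without it or kept for the same hours without 4-OHT were analysed here, so time in culture, 4-OHT and the fusion cannot be told apart. The labels do not say how many clones or cultures were used.

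The authors' normalized intensity was used, with negative values set to 0, 16 added and log2 taken; every log2 difference, every fold and every share made up below is on that scale, with the 16 added. A fold is therefore smaller than the ratio of the printed intensities, the more so for dim probes. A gene was chosen if its probe read 100 or more at 0 h, lay above -0.3 at 2 h or 4 h, was at -0.6 or lower at 12 h, was no higher than 0 h at 24 h, and stood at least 0.4 higher at 24 h than at 12 h. Each gene was represented by its probe with the highest mean. Of 19057 genes with a probe, 5545 read 100 or more at 0 h, and 66 of them met the rule, which is 1.19%. The genes were chosen by their values at 0, 2, 4, 12 and 24 h, so these are given as a description and without a test; the 8 h array had no part in the rule. There were no replicates, so no value has an error. In bulk cells, fewer cells expressing a gene and less RNA per cell cannot be told apart.

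Embryonic stem cells in serum and LIF keep a naive pluripotent state through transcription factors such as NANOG, ESRRB and the KLF family, several of which answer to LIF through STAT3. Snail is a repressor that binds E-box sequences and is best known for lowering epithelial genes in gastrulation and in the epithelial to mesenchymal transition. Lefty proteins are secreted antagonists of Nodal, and their genes are themselves switched on by Nodal signalling.

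The label of the cells was checked first. All 10 stem cell markers on the list, among them Pou5f1, Sox2 and Nanog, read 100 or more at 0 h, and 10 of 12 fibroblast markers were under 50 on every array. The summed normalized intensity of the 10 stem cell markers was 45900, 39900, 41500, 33300, 32100 and 36000 in order of time. This sum was lowest at 12 h and higher at 24 h, but bright genes weigh most in it and the markers did not share a single course. Dppa5a alone read 21314 at 0 h, 16354 at 12 h and 17702 at 24 h, while Pou5f1 read 4383, 5083 and 6189. Of the 10, 3 were at -0.6 or lower at 12 h, against 10.1% of all genes. Their median log2 difference was -0.16 at 12 h and 0.05 at 24 h. The part of these markers in the results below was not tested. The sums over 12 fibroblast markers ran from 162 to 275. For 12 trophectoderm markers, of which 6 were under 50 on every array, the sum was 1210 at 24 h against 814 at 0 h. The 12 h sum, 791, lay below the 0 h sum, and the members did not move together. Between the 0 and 24 h arrays Id2 went from 45.5 to 325, and Fgfr2 and Krt8 also ended higher. Tfap2c, the brightest of the list before 4-OHT, went from 479 to 194. The 12 and 24 h arrays, between which the return was measured, had background SDs of 4.72 and 4.73 intensity units, while those of the 4 earlier arrays lay between 8.72 and 16.1; the part of this in the return was not tested.

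As a set, the 66 genes were close to their 0 h level in the first 4 h, low by 8 h, lowest at 12 h and about midway back at 24 h. On the arrays of 2, 4, 8, 12 and 24 h, the median log2 difference of the 66 genes was -0.12, -0.13, -0.90, -1.09 and -0.52. Over all 5545 genes the medians stayed between -0.03 and 0.01. Lowness at 12 h was met by 10.1% of the 5545 genes and a return of 0.4 or more by 5.01%, but since the rule asked for both, nothing is read from the 66 genes meeting them. At 24 h, 28 of the 66 were still at -0.6 or lower, against 10.4% of the 5545 genes. The share of the 12 h difference made up by 24 h ran from 14.4% for Klf2 to 99.8% for Gfi1b, with a median of 56.5%. It was 75% or more for 13 genes, at least 50% for a further 26 and under 50% for 27.

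**Figure D1:**
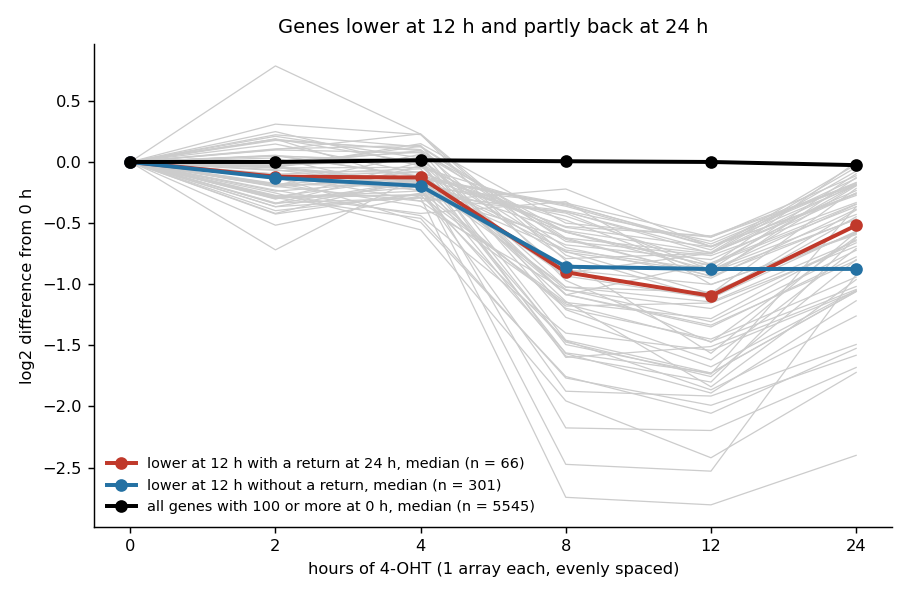
Log2 difference from 0 h (vertical axis) against hours of 4-OHT (horizontal axis, evenly spaced). Grey lines are the 66 genes, 1 array per time; the red line is their median, the blue line that of 301 genes lower at 12 h without a return, and the black line that of all 5545 genes with 100 or more at 0 h. The red and blue medians lie close at 8 h. At 12 h the red one is the lower, at -1.09 against -0.88, and at 24 h the higher, at -0.52 against -0.88.

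The 8 h array was not used by the rule, but its difference from 0 h shares the 0 h array with it. All 66 genes were below 0 h at 8 h, as were 2734 of the 5545 genes, and 47 of them, 71.2%, were at -0.6 or lower, against 9.92% of the 5545 genes. The step from 8 to 24 h is not independent of the rule, which asked for a high 24 h value, and it is given as a description only. At 24 h, 64 of the 66 were higher than at 8 h, where 46.1% of all genes were, and 23 were higher by 0.4 or more, where 4.8% of all were; nothing is read from these counts. The step from 8 to 24 h had a median of 0.35, smaller than the 0.54 from 12 to 24 h. The 8 h value lay between the 4 h and 12 h values in 59 genes, and 5 genes, Cirbp, Epp13, Got1l1, Stag3 and Tcea3, were lowest at 8 h. These genes were named after their values were seen. With the 8 h array in place of the 12 h array in the rule, an alternative chosen after seeing the data, 59 genes were found, of which 21 were among the 66. On the signal table without background correction, 18 genes met the rule, from a table that holds 51 of the 66.

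The other 19 genes were above -0.6 at 8 h. Their 8 h values ran down from -0.22, for Snora65, and their median at 12 h was -0.72, against -1.35 for the 47. Hnrnpd, which encodes an RNA-binding protein of mRNA decay, is the clearest case, with normalized intensities, by time, of 266, 217, 194, 209, 125 and 171. The 8 h array stood above the 4 h array and the 12 h array was the lowest. All 5 members of a group for protein turnover and transport, drawn up after their values were seen, were among the 19, and nothing is read from this count. They are Psmd10, a proteasome assembly chaperone, Cdc37, a partner of HSP90, Bcap31, Rab4b and Wdr83os, and their 8 h differences lay between -0.57 and -0.34.

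**Figure D2:**
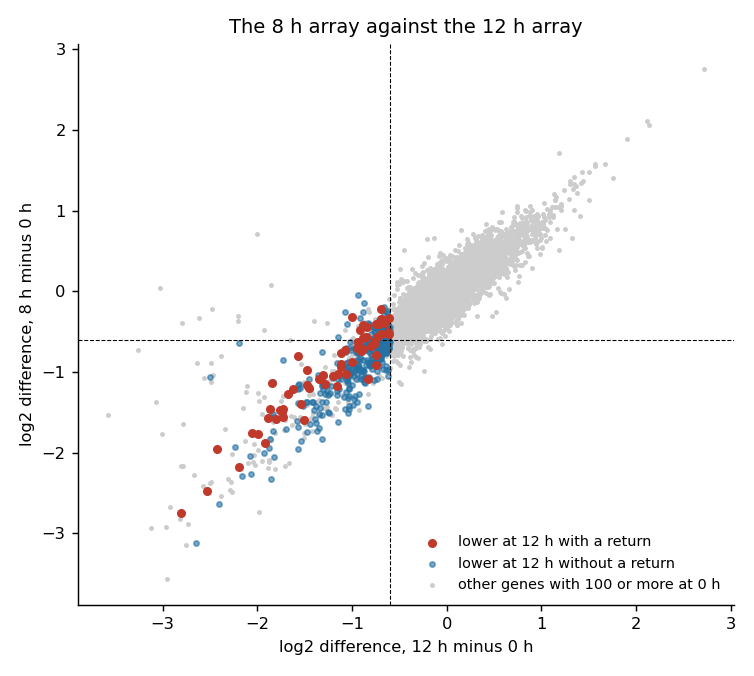
Log2 difference from 0 h at 8 h (vertical axis) against that at 12 h (horizontal axis) for the 5545 genes with 100 or more at 0 h, 1 point per gene; dashed lines mark -0.6. Of the 66 genes in red, 47 lie below the horizontal line and 19 above it, and the 301 genes without a return (blue) spread around the same diagonal.

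The nearest genes for comparison were 301 that met every part of the rule except the return. Their medians on the 8, 12 and 24 h arrays were -0.86, -0.88 and -0.88, so up to 8 h they ran close to the 66, and the parting at 12 and 24 h is what the rule selects. At -0.6 or lower at 8 h were 71.2% of the 66 and 80.1% of the 301; the difference was not tested, since genes on shared arrays are not replicates. A step from 8 to 24 h of 0.4 or more was seen in 34.8% of the 66 and 5.98% of the 301, and as the rule split the genes on their 24 h values, nothing is read from it. With every sign in the rule turned, 37 genes were higher at 12 h and part of the way back at 24 h. The 66 are 11.8% of the 558 genes at -0.6 or lower at 12 h, and the 37 are 12.5% of the 296 genes at 0.6 or higher, which were 5.34% of the 5545. This comparison was chosen after the data were seen, and the difference between the shares was not tested.

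The signalling genes held the largest return of all. Lefty1 had normalized intensities of 457, 522, 402, 69.1, 65.9 and 233 at 0, 2, 4, 8, 12 and 24 h. With 16 added to each value, the 12 h array was 5.78-fold and the 24 h array 1.90-fold lower than 0 h, and the 24 h array was 3.05-fold higher than the 12 h array. Its arrays fall into 3 levels, with the first 4 h high, 8 and 12 h low and 24 h between them. Lefty2, the neighbouring Nodal antagonist, shared the early part only, with log2 differences of -1.37, -1.28 and -1.43 on the 8, 12 and 24 h arrays. Nodal itself stood at -0.22 at 12 h and -0.32 at 24 h. Of 9 measured Nodal and TGF-beta genes on the list, 2 were at -0.6 or lower at 12 h, against 10.1% of all genes, and they were Lefty1 and Lefty2; Tdgf1, the Nodal co-receptor gene, was at -0.50.

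Porcn encodes the acyltransferase that lipidates Wnt proteins for secretion. Its intensities were 327, 409, 384, 179.9, 99.8 and 214 in order of time, above 0 h at 2 and 4 h and at its lowest at 12 h, and the 24 h array was 1.49-fold below 0 h. Ngfr, the p75 neurotrophin receptor gene, read 279, 231, 185, 60.1, 39.1 and 73.4 and was among the lowest at 12 h relative to 0 h, at 5.35-fold lower with 16 added. Only 28.9% of that difference was made up by 24 h, and the probe was detected on 5 of the 6 arrays.

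Several signalling genes came nearly all the way back. Gadd45g, a stress sensor linked to growth arrest, read 592, 635, 625, 376, 303 and 541, with the 24 h array just under the first 3. Fstl1, a secreted BMP-binding glycoprotein, read 416, 405, 456, 265, 240.3 and 394, and Tek, the angiopoietin receptor gene, 251, 242, 222, 163, 132 and 218. These 3 genes made up 86.3%, 90.0% and 77.9% of their 12 h difference. Wwtr1, which encodes the YAP partner TAZ, stood at -0.90 at 12 h and -0.47 at 24 h.

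The set held 4 pluripotency genes, Klf2, Klf4, Fbxo15 and Tcea3, a group drawn up after their values were seen. Klf2, a naive state factor, had intensities of 3718, 2880.2, 3037, 541, 518 and 691, and at 6.99-fold lower it differed most among the 66 at 12 h. At 24 h it was still 5.28-fold lower than at 0 h, and its return of 0.40 is the closest of all to the 0.4 the rule asks for. Klf4, a naive factor and LIF target, read 383, 333, 401, 129, 105 and 175. It stayed near its 0 h level for 4 h, was 3.31-fold lower at 12 h and made up 38.6%. A dimmer Klf4 probe stood at -1.41 at 12 h and -1.10 at 24 h, a return of 0.31. Another, which read 69.4 at 0 h, stood at -0.95 at 12 h with a return of 0.13, and so neither reached the 0.4 of the rule.

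Fbxo15 is an F-box gene expressed in embryonic stem cells and used as a reporter of reprogramming. It read 1744, 1626, 1677, 578, 459 and 785, and a further probe of the gene gave log2 differences of -1.55, -1.78 and -1.25 at 8, 12 and 24 h. Tcea3, a transcription elongation factor, read 1796, 1837, 1518, 784, 798 and 1107, and its further probe also met the thresholds at 12 and 24 h. The 4 genes made up between 14.4% and 40.2%. On the list of general pluripotency genes, which holds Tcea3, 4 of 18 measured genes were at -0.6 or lower at 12 h, against 10.1% of all genes, and the list's median was 0.08. Eras, a Ras-like gene of embryonic stem cells on that list, was low too and made up 52.3%, outside the set.

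Most of the naive list lay outside the 66. Of 14 measured naive genes, 11 were at -0.6 or lower at 12 h, against 10.1% of all genes, with 2 of them, Klf2 and Klf4, in the set and 2, Esrrb and Klf5, without a return. The remaining 7 had been below -0.3 at both 2 and 4 h and so missed the rule. Tbx3, Spry4 and Tcl1 among these came back by 0.65, 0.71 and 0.49 between 12 and 24 h, while Tfcp2l1 differed by 0.10 and Zfp42 by -0.08. Nanog was at -1.70 at 12 h and -1.42 at 24 h.

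**Figure D3:**
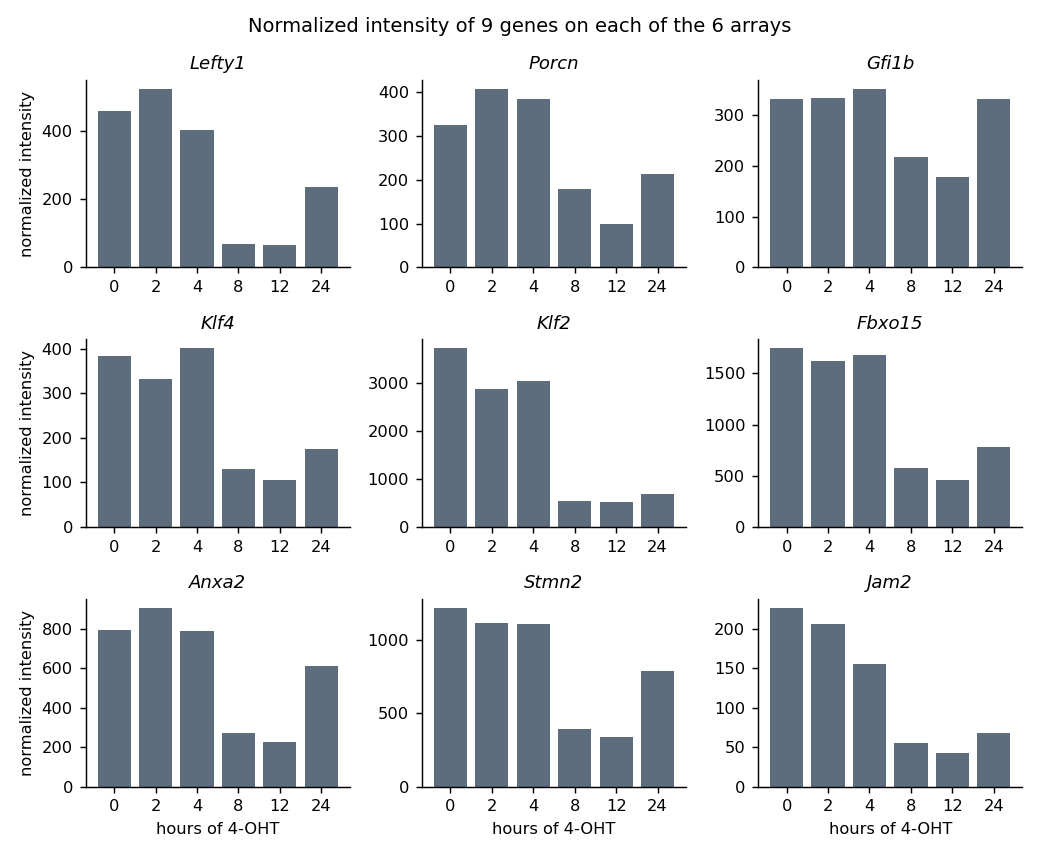
Normalized intensity (vertical axes, from 0, own scale for each gene) on the array of each time (horizontal axes, hours of 4-OHT) for 9 genes, 1 array per bar and no error. Gfi1b ends at its 0 h level, and the other genes end between their 12 h and 0 h levels. Of these, Lefty1, Klf2, Klf4, Fbxo15 and Jam2 end nearer to the 12 h level on this scale.

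The cytoskeletal genes were led by Anxa2, which encodes a calcium-dependent, membrane- and actin-binding annexin. Its normalized intensities were 791, 903, 786, 270.4, 226 and 609.8, so that the 8 and 12 h arrays were well under the other 4, and it made up 78.9% of a 3.33-fold difference. Stmn2, a stathmin that destabilises microtubules, read 1213, 1114, 1107, 393, 337 and 785. Its 24 h value was 2.27-fold above that at 12 h. Tmsb4x encodes thymosin beta 4, which sequesters actin monomers, and read 6189, 5435, 5845, 2909, 2418 and 3607, ending 1.71-fold below 0 h.

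Mical1, an enzyme that oxidises and disassembles actin filaments, was at -1.11 at 12 h and -0.39 at 24 h, and a further probe was at -0.82 and -0.11. Mylpf, a myosin light chain of skeletal muscle, was at -1.28 and -0.64, with a further probe at -1.31 and -0.53. That further probe was already at -0.59 and -0.64 at 2 and 4 h. For these genes the probes of the same gene gave the same order of the arrays at 12 and 24 h. Cep41, a centrosomal protein gene, was at -0.69 and -0.13.

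At the cell surface, the junctional adhesion molecule gene Jam2 read 226, 207, 156, 55.8, 42.3 and 68.2 in order of time. It was 4.16-fold lower at 12 h with 16 added, was already lower at 4 h and made up 25.8%, and a further probe showed lowness but a return of only 0.12. Dpp4, a membrane peptidase, read 218, 249, 233, 80.8, 57.1 and 96.7, and Ildr1, a protein of tricellular junctions, 126, 136, 151, 67.7, 49.4 and 88.1. Dsg2, a desmosomal cadherin gene, was close to the threshold at 12 h, at -0.60, and Myadm, a gene for a membrane protein of the myelin and lymphocyte family, came back to -0.04. The matrix-processing genes Pcolce, which encodes an enhancer of procollagen C-proteinase, and P3h4 were at -1.54 and -1.11 at 12 h and -1.06 and -0.57 at 24 h. Of 11 measured genes on the list of epithelial junctions, which does not hold Jam2, Ildr1 or Dsg2, 2 were at -0.6 or lower at 12 h, against 10.1% of all genes, and none met the rule.

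The set held 4 core histone genes, H2bc7, H2bc11, H4c1 and H4c6. Histones package DNA, and most of their genes are transcribed in S phase. H2bc7 read 311, 346, 291, 143, 116 and 182 in order of time, and H2bc11 257, 299.8, 263, 113, 92.2 and 140.3. H4c1 read 356, 347, 316, 167, 152 and 222, and H4c6 158, 186, 173, 94.6, 86.0 and 122. All 4 were high on the first 3 arrays, lowest at 12 h and between the levels at 24 h, and they made up between 39.7% and 56.6% of the 12 h difference.

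The promoters of 3 of these genes are shown because the genes shared a course on the 6 arrays. The windows run from 250 bases before to 50 bases after the gene start, from RefSeq on GRCm38.p6, 5′ to 3′ along the gene, with CCAAT on either strand (CCAAT or ATTGG) in capitals. The window of H4c6 is not shown.
H2bc7, chr13:23574158-23574457, minus strand: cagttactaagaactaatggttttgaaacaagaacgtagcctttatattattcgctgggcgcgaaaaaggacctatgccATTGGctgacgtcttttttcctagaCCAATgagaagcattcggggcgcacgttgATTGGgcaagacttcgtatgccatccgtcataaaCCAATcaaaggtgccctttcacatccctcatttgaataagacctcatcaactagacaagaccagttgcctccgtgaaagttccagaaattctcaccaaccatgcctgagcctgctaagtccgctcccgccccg
H2bc11, chr13:22042948-22043247, plus strand: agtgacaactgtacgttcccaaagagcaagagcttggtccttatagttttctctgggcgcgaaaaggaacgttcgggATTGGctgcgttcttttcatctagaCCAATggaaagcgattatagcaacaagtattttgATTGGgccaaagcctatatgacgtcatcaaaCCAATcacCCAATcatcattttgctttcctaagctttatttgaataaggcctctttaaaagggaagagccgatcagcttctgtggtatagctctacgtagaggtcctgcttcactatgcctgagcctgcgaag
H4c1, chr13:23761200-23761499, minus strand: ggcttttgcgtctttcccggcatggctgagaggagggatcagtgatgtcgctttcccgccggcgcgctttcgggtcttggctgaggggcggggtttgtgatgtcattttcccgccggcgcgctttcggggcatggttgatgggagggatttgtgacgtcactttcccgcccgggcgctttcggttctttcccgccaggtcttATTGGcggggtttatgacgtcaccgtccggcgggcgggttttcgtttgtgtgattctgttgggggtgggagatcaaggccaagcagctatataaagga
Both H2B windows carry the motif on both strands and H4c1 carries it on the reverse strand only. Among genes with a window, 48.1% of 54 members and 47.4% of 234 genes without a return held it. So did 44.7% of 4577 genes with 100 or more at 0 h and 41.1% of all 27025.

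The other core histone genes were then set beside these 4, a family chosen after its values were seen. All 7 measured H2B genes were at -0.6 or lower at 8 h and at 12 h, against 9.92% and 10.1% of all genes, with 12 h differences between -1.33 and -1.01. Both measured H4 genes and 4 of 9 H3 genes were low as well, while of 15 H2A genes only H2ac19 was, at -0.65 at 12 h. The H2A count includes the variant genes H2ax, H2aj, H2az1 and H2az2, and the H3 count H3f3a and H3f3b, none of them low. Of the 14 low histone genes, 10 missed the set because their return was under 0.4; H2bc12, for example, came back by 0.35 and H2bc21 by 0.04. Among the 7 H2B genes the returns ran from 0.04 to 0.58, on both sides of the 0.4 asked for. Of the H2A probes, 8 read over 9000 at 0 h, with H2ac24 at 29125 where the table's maximum is 32363. Histone genes have near-identical copies, so the probes may read more than 1 gene. Of 22 DNA replication and G1 to S genes and 12 mitosis genes measured, 0 were at -0.6 or lower at 12 h, against 10.1% of all genes.

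**Figure D4:**
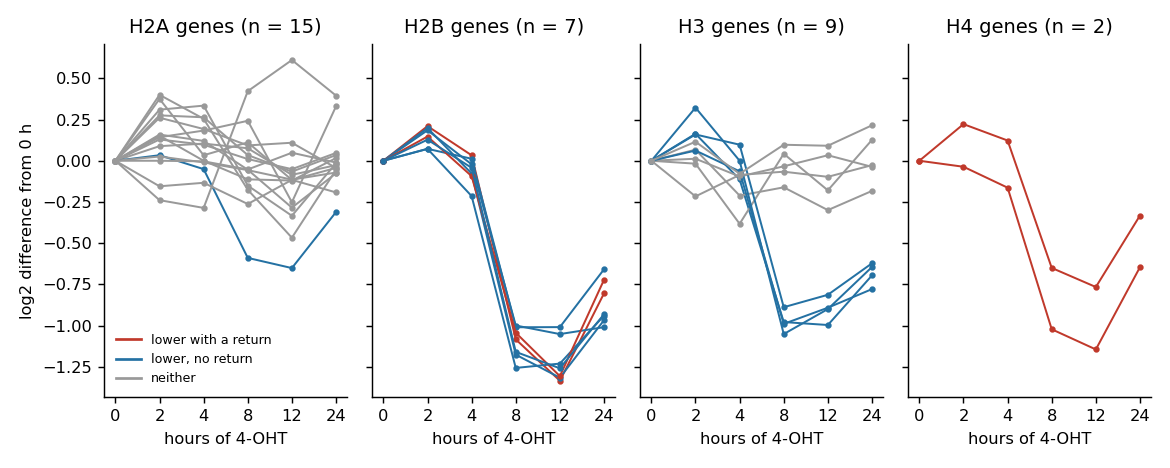
Log2 difference from 0 h (vertical axis) against hours of 4-OHT (horizontal axis, evenly spaced) for core histone genes with 100 or more at 0 h, 1 line per gene and 1 array per point. The 7 H2B and 2 H4 genes and 4 of the 9 H3 genes are low at 8 and 12 h, and 1 of the 15 H2A genes at 12 h; red lines mark the 4 genes that met the rule and blue lines the 10 that lacked the return.

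Among nuclear regulators, Gfi1b and Tbl1xr1 made up 99.8% and 97.2% of their 12 h difference, the largest shares of the 66. Gfi1b, a zinc finger repressor of blood cell development, read 332, 334, 352, 218, 177 and 332, and its 24 h value equalled that at 0 h to within 1 unit. A further probe of Gfi1b stood at -0.94 at 12 h and 0.11 at 24 h. Tbl1xr1, part of the NCoR corepressor complex, read 330.4, 319, 319.9, 245, 194 and 326, and was at -0.41 at 8 h.

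Aire, the autoimmune regulator known for its role in the thymus, read 180.4, 323, 214, 84.3, 54.7 and 112, highest at 2 h and lowest at 12 h. Its further probe gave -1.61 at 12 h and -0.67 at 24 h. Phf11d, a PHD finger gene, read 588, 634, 647, 245, 181 and 353, and its further probe gave -1.37 and -0.59. For Aire and Phf11d the probes thus gave the same course. Mtf1, the metal-responsive transcription factor, Nucks1, a chromatin-associated phosphoprotein, and Mad2l2, a subunit of translesion DNA polymerase zeta, were at -1.20, -0.69 and -0.94 at 12 h and at -0.66, -0.27 and -0.47 at 24 h.

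A group of 4 genes is best known from germ cells. Stag3, a cohesin subunit of meiosis, read 1046, 1027, 1055, 334, 357 and 499, with its lowest array at 8 h. D1Pas1, a DEAD box helicase gene of the testis, read 217, 169, 212, 89.8, 49.2 and 104, and Cabs1, a calcium-binding protein of spermatids, 122, 67.7, 112, 33.6, 24.8 and 63.2. Cabs1 was detected on 4 of the 6 arrays and D1Pas1 on all of them. Fmr1nb read 372, 313, 334, 219, 195 and 347 and made up 89.1%.

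Of 8 genes for RNA and translation, 3 were at -0.6 or lower at 8 h and 5 were not. At -0.6 or lower at 8 h were 71.2% of the 66 and 9.92% of the 5545 genes. The group was drawn up after its values were seen, and nothing is read from this count. Eif4e2, a cap-binding repressor of translation, read 1588, 1377, 1474, 1138, 834 and 1384. Rbm8a encodes the exon junction protein Y14 and read 515, 467, 455, 375, 281 and 396. Snora65, a small nucleolar RNA gene, read 1396, 1213, 1114, 1195, 857 and 1160.4. In these 3 genes the 8 h array was nearer to 4 h or 24 h than to 12 h.

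Cirbp, the cold-inducible RNA-binding protein gene, differed in being lowest at 8 h, with -0.91, -0.75 and -0.18 on the last 3 arrays. Tefm, the mitochondrial transcription elongation factor gene, was at -0.80 and -0.25, and the imprinted gene Mkrn3, which encodes a RING finger protein, at -0.75 and -0.23, at 12 and 24 h. Oas1g, one of the oligoadenylate synthetases known as interferon-induced antiviral enzymes, was at -1.92 and -1.49; the family holds near-identical copies, so its probe may read more than 1 gene.

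The metabolic genes were Acss2, which makes acetyl-CoA from acetate, Ephx2, the soluble epoxide hydrolase, Acot10, a mitochondrial acyl-CoA thioesterase, Oaz2, an antizyme that limits polyamine synthesis, Sdr39u1 and Got1l1. Their 12 h differences ran from -1.47 for Ephx2 to -0.65 for Oaz2, and those at 24 h from -1.02 to -0.17. Of 18 measured hypoxia and glycolysis genes on the list, 11 were at -0.6 or lower at 12 h, against 10.1% of all genes, and none was in the set: 9 lacked the return, and the median of the list was -0.84 at 12 h and -0.77 at 24 h. Of 14 measured cholesterol and fatty acid synthesis genes, 2 were low at 12 h, against 10.1% of all genes. None was in the set. Members were 1.19% of all genes, so nothing is read from either list holding none.

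The remaining 8 genes were Lrrc34, Fam25c, Prune2, Tmem218, Epp13, 1700029P11Rik, 2410137M14Rik and AU018091. Lrrc34, a leucine-rich repeat gene, read 725, 593, 663, 148, 146 and 215 and was 4.58-fold lower at 12 h. Fam25c read 1069, 878, 884, 378, 282 and 437, and AU018091 read 323, 261, 230.0, 83.5, 69.2 and 97.1, of which 20.6% was made up. A further probe of Lrrc34 stood at -1.55 at 12 h and -1.15 at 24 h, and was already at -0.41 and -0.30 at 2 and 4 h. The 12 h differences of the 8 ran from -2.20 to -0.67.

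**Figure D5:**
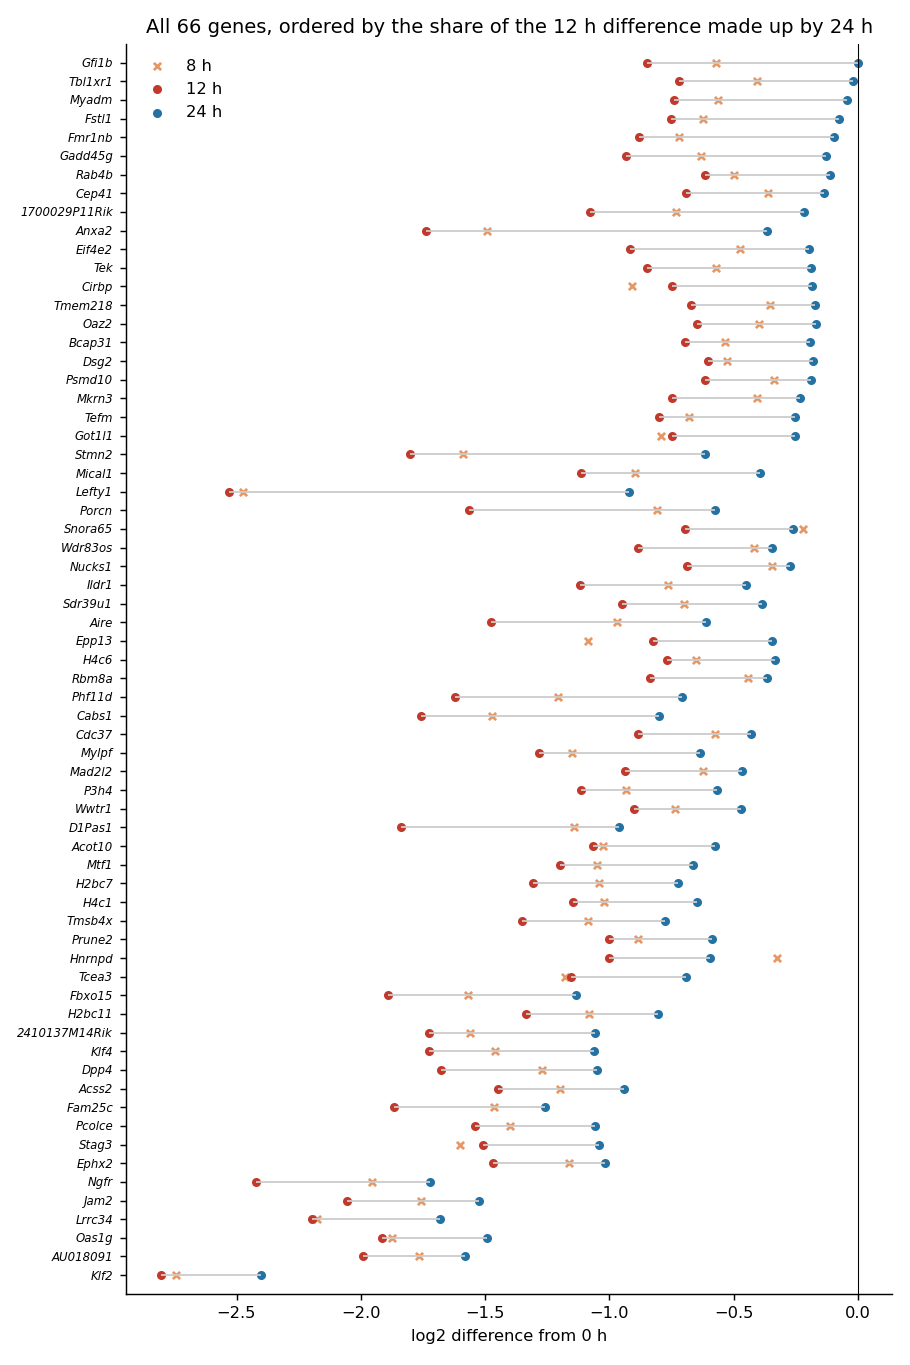
Log2 difference from 0 h (horizontal axis) at 8 h (orange cross), 12 h (red) and 24 h (blue) for each of the 66 genes (vertical axis), 1 array per point, ordered from the largest share of the 12 h difference made up by 24 h (Gfi1b, 99.8%) to the smallest (Klf2, 14.4%). Genes with deep differences at 12 h, such as Klf2, Jam2 and Ngfr, lie mostly at the bottom, and Lefty1, Stmn2 and Anxa2 are deep but further up. The rule asked every gene for the same least return, so a small share could pass only where the 12 h difference was deep. Part of this order is therefore built in, and nothing is read from it.

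Other probes of the same genes, which the rule did not use, give a check of the probe but not of the cells, since the RNA and arrays are the same. Of 66 further probes, for 39 of the genes, 18 read 100 or more at 0 h. All 18 were below 0 h at 12 h and 13 were at -0.6 or lower, against 9.13% of the 2015 further probes of that brightness on the arrays. A return of 0.4 or more was seen in 11, against 5.41%, and both in 9. The 9 were counted on these parts of the rule only. Among them, the probes of Mylpf and Lrrc34 were below -0.3 at both 2 and 4 h, and that of Gfi1b was above 0 h at 24 h. Of 11 probes for genes at -0.6 or lower at 8 h, all 11 were at -0.6 or lower at 12 h and 7 came back by 0.4 or more. Of 7 probes for the other genes, whose chosen probes were nearer to the 12 h threshold, 2 were at -0.6 or lower and 4 came back by 0.4 or more.

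Psmd10 had the clearest disagreement. The chosen probe stood at -0.61 at 12 h, while the others stood at -0.21 and -0.29, and these came back by -0.09 and 0.14. Of the further Eif4e2 probes, 1 was at -0.88 and 1 at -0.38. Those of Snora65 and Rbm8a reached -0.47 and -0.54, short of the threshold, with returns of 0.46 and 0.60. The further probes of AU018091 and 1700029P11Rik were at -1.96 and -0.86 at 12 h, with returns of 0.31 and 0.40, both under 0.4 before rounding. Dimmer probes also disagreed. A Bcap31 probe that read 83.4 at 0 h stood at -0.06 at 12 h, with a return of -0.01. Probes of H4c6 and Jam2 that read 69.3 and 82.1 at 0 h had returns of 0.03 and -0.39. An Ildr1 probe that read 93.5 at 0 h had a return of 0.35. A Gadd45g probe that read 91.3 stood at -0.56 at 12 h and 0.08 at 24 h. An Oas1g probe that read 46.4 had a return of -0.78. Dimmer still, an Anxa2 probe that read 20.3 stood at -1.12 at 12 h with a return of 0.02. Further Tbl1xr1 probes, which read 37.9, 19.7 and 7.53 at 0 h, stood at 0.36, 0.05 and 0.71 at 12 h. Of all 66 further probes, 11 met both the lowness at 12 h and the return.

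The thresholds cut through a continuous range. Klf2, Hnrnpd and AU018091 were just inside the return, at 0.40, 0.41 and 0.41, and Zfp607a, Plekha4 and Pla1a just outside, at 0.40, 0.39 and 0.38. At 12 h, Dsg2, Psmd10 and Rab4b were inside at -0.60, -0.61 and -0.62, and Mgst3, Psma8 and Zfp979 outside at -0.59, -0.58 and -0.57. At 24 h, Gfi1b was the last inside and Luc7l2 the first outside, at 0.01. In the first hours, Mkrn3 was inside and Psmd8 outside, both at -0.30 for the higher of 2 and 4 h, and at 0 h Cdc37 read 102 and Clca3b 99.8.

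The E-box bound by Snail was looked for in the promoter windows, as CACCTG on either strand (CACCTG or CAGGTG). Of the 66 genes, 54 had a window by gene identifier, and 8 of these, 14.8%, held the motif, with an exact binomial interval at 95% confidence of 6.62% to 27.1% that covers counting only. Among genes with a window, it was held by 26.9% of 234 without a return and by 20.0% of 4577 with 100 or more at 0 h. It was held by 22.6% of all 27025. The interval takes in all 3 of these shares. A match says only that these letters are in the window, and the motif was absent from the windows of Klf2, Klf4 and Gfi1b; those letters missing there say nothing of Snail at these genes.

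The 8 genes are shown with 12 bases on either side of the match, which is in capitals, 5′ to 3′ along the gene, from RefSeq on GRCm38.p6. They let the motif be read beside the courses above. For Epp13, with matches in different windows, the match nearest to a gene start is given.
Mtf1, chr4:124802559-124802588, plus strand: tgacgctagggaCAGGTGggggcaatcatg
Mad2l2, chr4:148140336-148140365, plus strand: cttgatcgctccCACCTGaaatccaaaggc
Pcolce, chr5:137611625-137611654, minus strand: gggtccagcctgCACCTGaaagtctccagc
Epp13, chr7:6255859-6255888, plus strand: attccctctctgCACCTGcttcctggtcct
Mkrn3, chr7:62420156-62420185, minus strand: gggaacggggagCAGGTGggaagacaaaaa
Aire, chr10:78043610-78043639, minus strand: tataaacgcttaCAGGTGcctctccggata
Ildr1, chr16:36693878-36693907, plus strand: gcggagatgggtCACCTGgcagcctgtgac
2410137M14Rik, chr17:36981415-36981444, minus strand: tgtctccaggtcCACCTGggttgacccccg
Of these, Aire and Ildr1 were described above among nuclear regulators and surface genes, and they returned by 0.86 and 0.67. Pcolce and Mtf1 returned by 0.48 and 0.54. The 8 genes belong to different groups and were not tested as a list.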

How the data were processed

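For all 6 arrays, the authors deposited a signal table, with a probe intensity and its detection p-value on every array per the file headers, and a value table of normalized intensity. GenomeStudio is named, without a version, in the submitters' processing notes, and the normalization steps are not known here. The value table held values below 0, so a background had been subtracted, and shared a minimum of -17.659 and a maximum of 32363 on all 6 arrays, with medians between 4.71 and 4.77. The signal table held 32765 of the 45281 probes and 51 of the 66 genes, of which 45 had a p-value under 0.01 on all 6 arrays. Of the 45281 probes, 34885 had 1 gene symbol, 18 several and 10378 none, and only the first were used. All 66 genes were found in RefSeq by gene identifier.

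The rule was applied in Python 3.11.15 and its script tested on simulated data. As an alternative, the signal table was corrected by normexp in limma 3.58.1 (R 4.3.3), with an offset of 16, and quantile normalized. Samples were grouped by time from the labels. With 1 array per time no test was run, and the number of arrays limits the precision.

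The members and lists were chosen with earlier results of these data known, and the groups by role were drawn up after values were seen. The genes named are members on a list (other than solute carriers and the respiratory chain), the 10 with the largest return, the 10 lowest at 12 h, the 8 brightest at 0 h, those whose further detected probe goes against the rule, and the 3 on either side of each threshold. Others were named for a known role after their values were seen.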

Additional observations from a re-analysis of the deposited data

How the results depend on the processing

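The rule was met by 66 genes. The count was 74 with an offset of 4 (64 of them among the 66), 87 with the mean of 0, 2 and 4 h as baseline (55), 68 with the probe brightest at 0 h (65), 50 with a minimum of 200, 99 with a return of 0.3 and 54 with the mean of 8 and 12 h as the trough (43). It was 42 with an offset of 64 (39) and 26 with a return of 0.6. On the signal table, which holds 51 of the 66, it was 49 after normexp (48) and 18 without background correction (17). Of the alternatives chosen after seeing the data, the 8 h array alone as the trough gave 59 genes, of which 21 were among the 66; both 2 and 4 h above -0.3 gave 46, and every sign turned gave 37. The share of members at -0.6 or lower at 8 h was 71.2%, lay between 59.1% and 78.4% under 4 alternatives, and was 54.9% of 51 without background correction. A return of 0.4 or more was kept by 60.6% of the 66 with an offset of 64 and by 39.2% of the 51 without background correction. The cause of these differences was not tested. Both the lowness at 12 h and the return were met by 16.7% of 66 further probes and by 50% of the 18 with 100 or more at 0 h. Any CANNTG was held by 68.5% of the 54 members' genes with a window, against 65.4% of those genes with 100 or more at 0 h that had one. No paired analysis was possible because each time has 1 array. For the genes that were not low at 8 h, the 12 h array and the time of 12 h cannot be told apart.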
